A study of Mus musculus with 4 samples.

Results

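The nuclear genes of oxidative phosphorylation were followed through 4 single-cell RNA libraries of the mouse cerebral cortex. They were taken by symbol, as every row that begins with Nduf, with Cox and a digit from 4 to 8, with Atp5 or with Uqcr and carries no pseudogene suffix. This gave 98 of 57126 rows, with 97 distinct symbols, since Atp5po stands on 2 rows. Complex I held 42 rows, its assembly factors 8, complex III 8, complex IV 21 (Ndufa4 and Ndufa4l2 included) and ATP synthase 19. Of the 98, 5 were at 0 in every library and 11 had fewer than 30 counts over both libraries of either age, so 87 were measured in each comparison below.

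The inner mitochondrial membrane holds the respiratory chain. Complexes I, III and IV pass electrons from NADH to oxygen and pump protons, and ATP synthase lets the protons back through a rotating ring to make ATP. Most subunits are encoded in the nucleus and a small core in the mitochondrial genome, so each complex is built from both. Radial glia, the stem cells of the embryonic cortex, and the neurons they produce are known to differ in how far they rely on glycolysis and respiration.

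Each library came from the cortex of 1 mouse: a wild type at E14.5, an animal labelled Tsku knockout at E14.5, a wild type at P0 and a Tsku knockout at P0. Tsku encodes the secreted proteoglycan Tsukushi, and the sources used here name no allele, strain or sex. Tissue was dissociated with trypsin and captured with the Asteria bead kit, and the study asked how loss of Tsku affects the developing cortex. With 1 animal a group there is no replicate for genotype, so ratios between libraries carry intervals for counting error only and no p-value.

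Tsku itself was at 54 counts in E14.5 wild type, 74 in the library labelled E14.5 knockout, 42 in P0 wild type and 0 in P0 knockout. In counts per 1000000 (CPM) this was 9.63, 5.14 and 6.95, and in P0 knockout the 95% Poisson interval of 0 counts reached 0.415 CPM and the floor of 3 counts 0.337 CPM. Tsku counts thus go against the label of the E14.5 knockout. That library also held 6707 counts of Xist and 1 of Ddx3y, whereas E14.5 wild type held 3 and 496, so sex and genotype label cannot be told apart at E14.5. Both P0 libraries were high in Ddx3y, with 666 and 1183 counts. Barcodes kept numbered 620, 4107, 1047 and 1436 with 5606381, 14404051, 6042033 and 8894856 counts, and the median barcode was shallowest, at 2829 counts, in the library labelled E14.5 knockout. At most 2 barcode strings were shared by any pair of libraries. The 87640, 193716, 90485 and 122494 counts of oxidative phosphorylation genes made up 1.56%, 1.34%, 1.50% and 1.38% of these totals.

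At E14.5 more of these genes were lower than higher in the library labelled knockout relative to wild type, and the membrane part of ATP synthase had the lowest summed ratio of any role. Of 87 measured genes, 26 were lower by at least 0.5 on the log2 scale, against 13.2% of all 14136 measured genes. Only 3 of the 87 were higher by that much (Atp5mc2, Ndufa4l2 and Ndufc2), against 13.5% of all genes. The median log2 ratio was -0.16 for these genes and 0.06 for all genes. Summed over all members the log2 ratio was -0.22 (95% interval -0.23 to -0.21). The 95% interval lay below 0 for 43 of the 87 genes, against 19.4% of all genes, and above 0 for 19, against 27.3%. Such intervals narrow as counts rise, and members were not matched to other genes by counts. Ndufab1 (-0.52) lay just inside the threshold of 0.5 and Ndufaf7 (-0.49) just outside it.

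**Figure D1:**
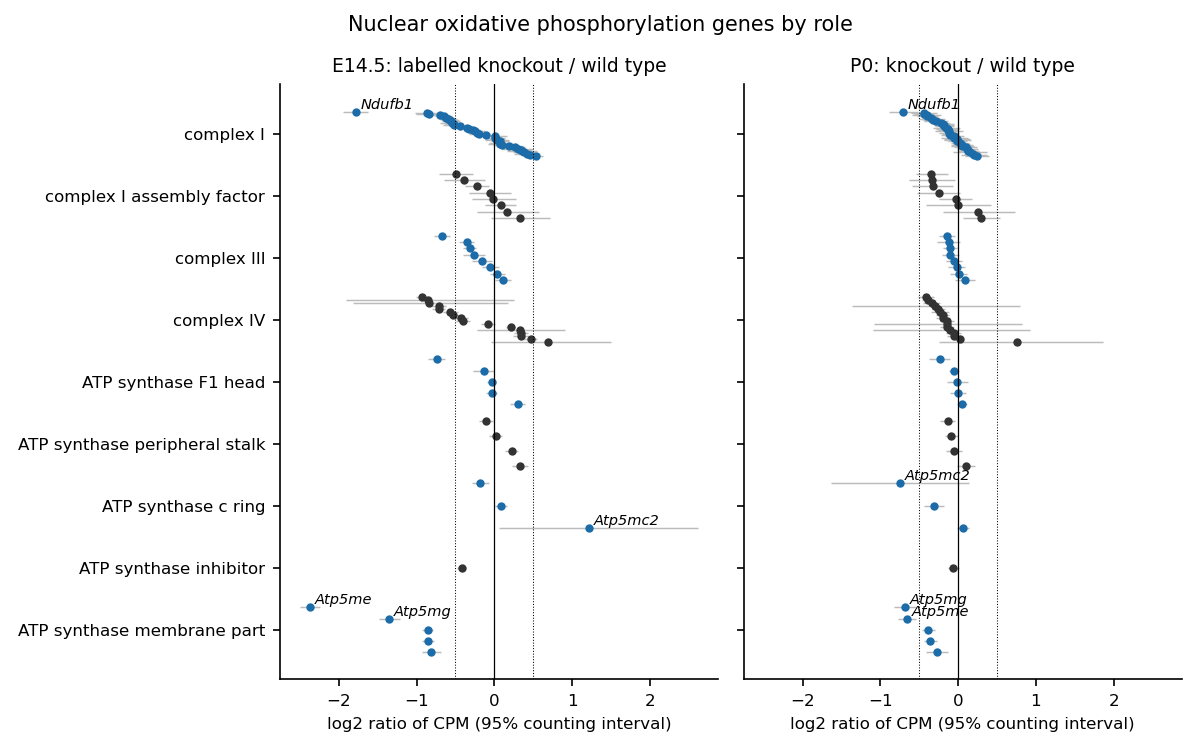
Log2 ratio of CPM (x axis) for each measured nuclear oxidative phosphorylation gene, in rows by role, between the libraries of E14.5 (left) and of P0 (right). Points are genes, grey lines are 95% counting intervals and dotted lines mark a log2 ratio of 0.5 either way; all 5 genes of the ATP synthase membrane part lie left of 0 at both ages.

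Atp5me, subunit e of ATP synthase, which sits in the membrane where synthase dimers form, was the lowest of all members. It was at 267 CPM in E14.5 wild type (95% interval 254 to 281), 51.5 in the library labelled E14.5 knockout (47.9 to 55.4), 190 in P0 wild type (179 to 201) and 120 in P0 knockout (113 to 128). The library labelled E14.5 knockout was the lowest and E14.5 wild type the highest, and no 2 of these intervals overlapped. The ratio at E14.5 was 5.18-fold lower, or -2.37 on the log2 scale (-2.50 to -2.25). At P0 it was 1.58-fold lower, or -0.66 (-0.78 to -0.54). Across every processing alternative Atp5me stayed between -2.63 and -2.08 at E14.5 and between -0.71 and -0.58 at P0. The rows of its pseudogene copies held at most 1 count in any library, and no other gene overlaps it in the annotation used here.

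The coding sequence of Atp5me is shown because its median spliced length, 321.5 nt, is the shortest of the 87 measured genes. The transcript shown has 371 bases, of which 216 are coding. Capitals mark the start and stop codons, and the sequence is from the GENCODE M21 transcripts (GRCm38, chromosome 5, minus strand).
Atp5me: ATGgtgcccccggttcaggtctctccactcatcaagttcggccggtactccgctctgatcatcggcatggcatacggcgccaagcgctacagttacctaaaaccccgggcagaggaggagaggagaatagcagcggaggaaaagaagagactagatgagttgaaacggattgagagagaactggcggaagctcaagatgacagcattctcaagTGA

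Ndufb1, a small accessory subunit of the membrane arm of complex I, followed Atp5me. It was at 131 CPM in E14.5 wild type, 38.2 in the library labelled E14.5 knockout, 86.2 in P0 wild type and 53.0 in P0 knockout. Both wild-type libraries were above both libraries of the other label. The log2 ratio was -1.78 (-1.95 to -1.62) at E14.5 and -0.70 (-0.89 to -0.52) at P0. Ndufb1 overlaps Cpsf2 on the opposite strand, and the sources used here do not say whether counting used strand, so reads of the pair may not be separable. Cpsf2 was at 690, 1928, 747 and 955 counts in the same order of libraries. GENCODE M21 lists the Ndufb1 row as noncoding, under the name Ndufb1-ps. The row entered the set by its symbol in the counts, Ndufb1.

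Atp5mg, subunit g of ATP synthase and a membrane neighbour of subunit e, was the third gene lower by 1 or more, against 4.22% of all genes. It was at 160, 62.5, 139 and 86.3 CPM in E14.5 wild type, the library labelled E14.5 knockout, P0 wild type and P0 knockout. Again both wild-type libraries were above the other pair. Its log2 ratio was -1.35 (-1.49 to -1.22) at E14.5 and -0.69 (-0.83 to -0.54) at P0. The only member higher by 1 or more, against 2.29% of all genes, was Atp5mc2, which encodes one of several copies of the c ring subunit. It had 7, 42, 25 and 22 counts, and its log2 ratio of 1.22 at E14.5 had an interval from 0.06 to 2.62.

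Among the roles of ATP synthase, the 5 genes here called the membrane part had the lowest summed ratio at both ages. The c ring, which also lies in the membrane, was counted as a role of its own. All 5 of its genes were lower by at least 0.5 at E14.5: besides Atp5me and Atp5mg these were Atp5mk (-0.86), Atp5mf (-0.85) and Atp5mj (-0.81). Summed, the membrane part was at 1483, 701, 1213 and 898 CPM, with log2 ratios of -1.08 at E14.5 and -0.43 at P0. The F1 head, which holds the catalytic sites, was at 1535, 1467, 1537 and 1516 CPM, with summed ratios of -0.07 and -0.02. In the F1 head Atp5f1b, the catalytic beta subunit, was at -0.04 and Atp5f1a at -0.03, while Atp5f1e, the small epsilon subunit of the central stalk, was at -0.74. The peripheral stalk, which holds the head still, had a summed ratio of 0.12 at E14.5, with Atp5po at 0.33 and Atp5pb at 0.22. The c ring had a summed ratio of 0.01 at E14.5, with Atp5mc1 at -0.18 and Atp5mc3 at 0.09.

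**Figure D2:**
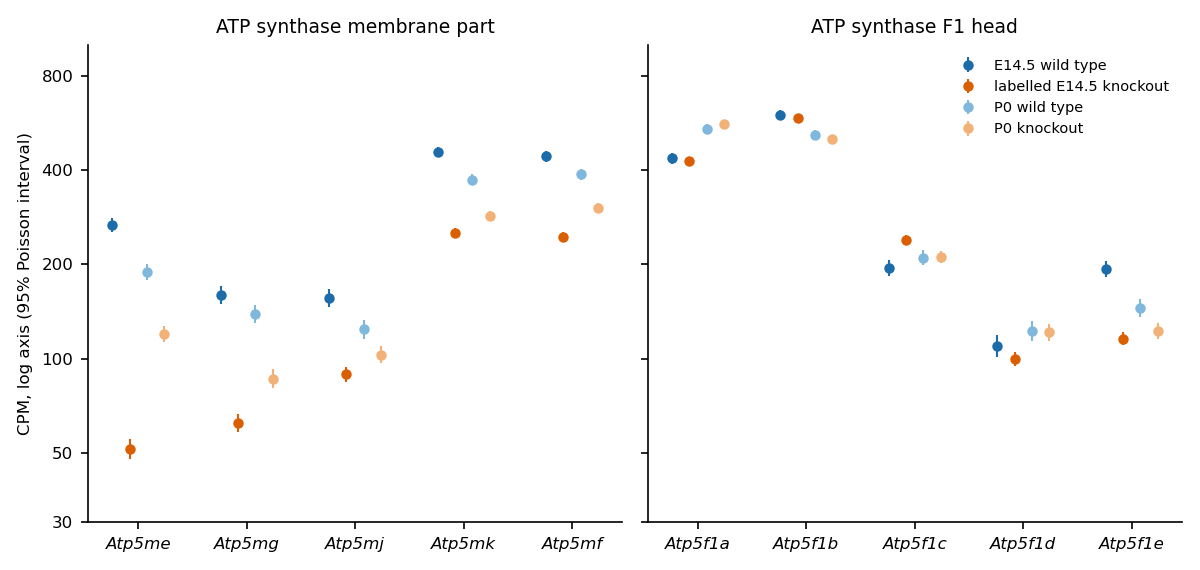
CPM on a log axis with 95% Poisson intervals in the 4 libraries (colours) for the 5 genes of the ATP synthase membrane part (left) and of the F1 head (right). The library labelled E14.5 knockout is the lowest of the 4 for every membrane part gene, and among the F1 head genes for Atp5f1a, Atp5f1d and Atp5f1e.

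Complex I held 12 genes lower by at least 0.5 among 37 measured, and 1 higher. After Ndufb1 these included the accessory subunits Ndufa3 (-0.87), Ndufb4 (-0.84), Ndufa6 (-0.69) and Ndufa2 (-0.65). Several subunits that carry the flavin or iron-sulfur clusters were not among them: Ndufv1 was at 0.08, Ndufv2 at 0.35, Ndufs1 at 0.19, Ndufs7 at 0.35 and Ndufs8 at 0.30. Ndufc2, an accessory membrane subunit, was the highest of complex I, at 0.53, with 198, 287, 251 and 275 CPM. None of the 8 assembly factors passed 0.5 in either direction. The X-linked members were at -0.59 for Ndufa1, 0.07 for Ndufb11 and -0.42 for Cox7b at E14.5, the age at which the sexes differed.

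Complex III, which passes electrons from ubiquinol to cytochrome c, held 1 gene lower by at least 0.5 among 8. This was Uqcr11, its smallest subunit, at -0.67 (-0.77 to -0.57), with 224, 141, 195 and 182 CPM. The core proteins Uqcrc1 and Uqcrc2 were at -0.16 and 0.04, and the hinge protein Uqcrh at -0.32.

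Complex IV, cytochrome c oxidase, held 7 genes lower by at least 0.5 among 16, of which Cox4i2 (-0.85) and Cox7a1 (-0.84) had intervals that include 0. Cox7c was at 412, 217, 364 and 280 CPM, with log2 ratios of -0.92 at E14.5 and -0.38 (-0.46 to -0.30) at P0. Cox6b1 was at -0.71, Cox5b at -0.72, Cox7a2l at -0.57 and Cox7b at -0.42. Cox6a1 (0.47), Cox7a2 (0.34), Ndufa4 (0.34) and Cox4i1 (0.21) lay above 0, and Cox8a was at -0.08. The isoforms best known from other tissues were low: Cox4i2, Cox6b2, Cox7a1 and Ndufa4l2 lay under 10 CPM in every library, and Cox6a2, Cox7b2, Cox8b and Cox8c held at most 5 counts in any.

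At P0 fewer members passed 0.5 between knockout and wild type. The P0 pair differs from the E14.5 pair in Tsku counts and sex markers, as given above. Of 87 genes, 4 were lower by at least 0.5 (Atp5mc2, Ndufb1, Atp5mg and Atp5me), against 5.86% of all genes, and 0 by 1 or more, against 1.03%. Cox6b2 was higher by that much, at 0.76 (-0.24 to 1.86), against 12.9% of all genes, and 0 members by 1 or more, against 3.73%. The median was -0.11, with all genes at 0.05, and 64 of 87 members lay below 0, against 43.1% of all genes. The summed log2 ratio was -0.12 (-0.13 to -0.11). The E14.5 and P0 contrasts share no library. All 26 genes lower by 0.5 or more at E14.5 were below 0 at P0, and 72 of 87 had the same sign at both ages. Both ratios were below 0 for 51 of the 87 members and for 2811 of the 13219 other genes. Of all genes lower by 0.5 or more at E14.5, the share below 0 at P0 was not counted. Over the 87 genes the rank correlation of both ratios was 0.69, and over 13219 other genes it was 0.10, with 55.4% of the same sign. The other genes were not matched to members by counts, and counting error weakens such a correlation most in genes with few counts. These correlations run across genes of the same 4 libraries, and genes are not independent replicates.

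Transcript length went with the ratio. Each gene was given the median spliced length of its coding transcripts in GENCODE M21 (for Ndufb1, which that release lists as noncoding, of its transcripts), which matched all 87. Members shorter than 500 nt, 14 in number, had a median of -0.70 at E14.5, and 10 of them were lower by 0.5 or more. The 170 other genes of that length had a median of -0.50, and 85 were lower by that much. For 500 to 750 nt the medians were -0.26 over 32 members and -0.09 over 454 other genes, and for 1000 to 2000 nt 0.03 over 20 members and 0.06 over 3179 others. Across the 87 members the rank correlation of length and ratio was 0.35 at E14.5 and 0.36 at P0. Across all genes with a length it was 0.07 (n = 13910) and 0.03 (n = 13637). Exceptions were found at both ends: Ndufa4, Cox6a1 and Ndufc2, with lengths of 460, 571 and 576.5 nt, lay above 0 at E14.5, whereas Ndufab1 and Ndufb2, at 2447.5 and 2413 nt, lay at -0.52 and -0.55.

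**Figure D3:**
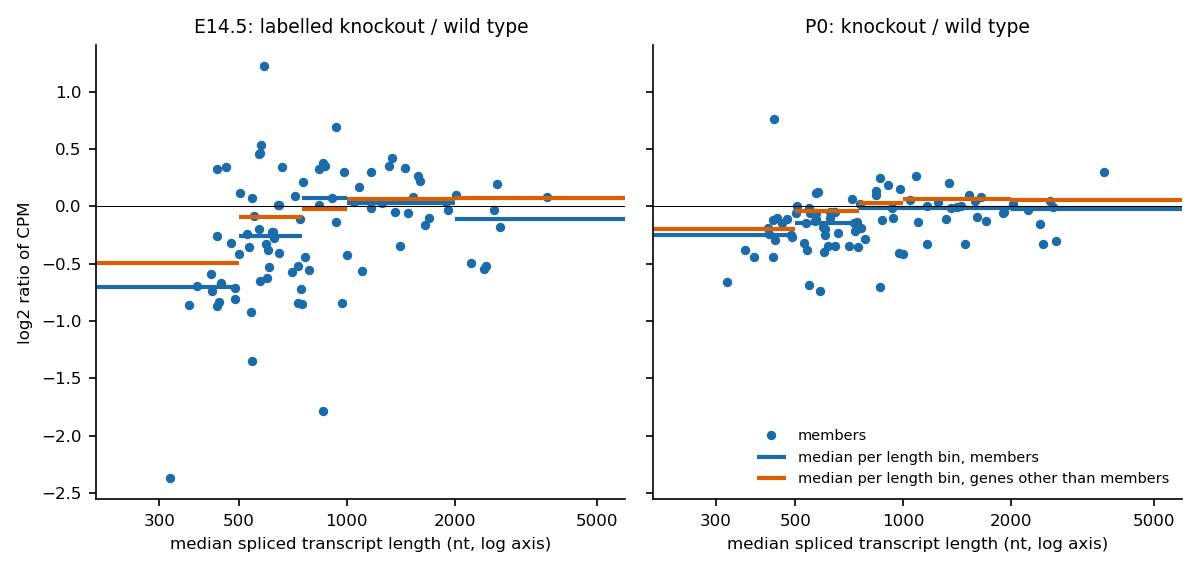
Log2 ratio of CPM (y axis) against median spliced transcript length in nucleotides (log x axis) for the measured members (points) at E14.5 (left) and P0 (right). Horizontal bars are medians per length bin, for members in blue and for other genes in orange; below 500 nt both bars lie under 0 at both ages.

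Other lists were measured in the same way. Of 83 measured ribosomal protein genes, whose transcripts are mostly short, 42 were lower by 0.5 or more at E14.5, with a median of -0.50, and 15 of 82 at P0, with a median of -0.28. Among the 13 protein genes of the mitochondrial genome 7 were lower by 0.5 or more at E14.5, among them mt-Nd3 (-2.22) and mt-Co2 (-1.67), while mt-Co1 was at 0.46. At P0 all 13 lay below 0, with a median of -0.30. The 4 genes of complex II, which links the citric acid cycle to the chain and was outside the set, had medians of 0.23 and 0.09. Citric acid cycle and glycolysis genes had medians of 0.30 and 0.16 at E14.5, and none of these 14 and 19 was lower by 0.5. The part of transcript length, sex, depth per barcode or animal in the ratios of the members was not tested.

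Barcodes were then gated by marker genes that include no member, with at least 3 of 8 markers of a class and 2 more than of any other. In the radial glia, projection neuron and inhibitory neuron gates the class's own markers summed to at least 5718, 3616 and 4124 CPM in each library. The next class used for gating reached at most 633, 533 and 981 CPM, and microglial, endothelial and meningeal markers lay between 0.972 and 184 CPM. Erythroid genes (globins and Alas2), which were not used for gating, were higher than those in several gates: 125 to 301 CPM in radial glia, 158 to 1244 in projection neurons and 278 to 3247 in inhibitory neurons. Their part in the differences between gates was not tested. No astrocyte list was among the gating classes. In the radial glia gate Slc1a3 was at 568 and 474 CPM at E14.5 and at 2485 and 2958 at P0. Fabp7, Hes5, Mfge8 and Hopx were also higher in both P0 libraries, while the ages overlapped for Pax6, Sox9 and Hes1. Whether this gate also holds astrocyte-like cells at P0 was not tested. The gates held 72, 465, 214 and 373 radial glia barcodes in E14.5 wild type, the library labelled E14.5 knockout, P0 wild type and P0 knockout. They held 213, 1168, 373 and 367 projection neuron and 119, 714, 148 and 121 inhibitory neuron barcodes. Intermediate progenitors had under 50 barcodes in 3 libraries and were not used.

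The outliers were low in all 3 gates. Atp5me in radial glia was at 339, 55.0, 202 and 135 CPM, in projection neurons at 219, 51.9, 157 and 103, and in inhibitory neurons at 252, 46.2, 174 and 107. In each gate the library labelled E14.5 knockout was the lowest. Its log2 ratios at E14.5 were -2.63 (-2.97 to -2.29), -2.08 (-2.32 to -1.84) and -2.45 (-2.81 to -2.09). Ndufb1 was at -1.92, -1.77 and -1.68, and Atp5mg at -1.19, -1.28 and -1.5. At E14.5, 33 of 83 members were lower by 0.5 or more in radial glia (16.5% of all genes), 19 of 82 in projection neurons (11.0%) and 24 of 82 in inhibitory neurons (10.9%). At P0 the counts were 9 of 82 (7.38%), 6 of 82 (7.94%) and 12 of 78 (13.2%). Differences between gates in these counts were not tested.

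Between gates the 4 animals serve as replicates, since each library holds each gate. Counts were summed per gate and library and fitted with edgeR's quasi-likelihood test with the library as a block, and p-values were adjusted by the Benjamini-Hochberg method over all genes. Both neuron gates were compared with the same radial glia sums, so their results are given side by side. In projection neurons 24 of 83 members were lower than in radial glia at an adjusted p under 0.05, against 27.2% of all genes, and 2 were higher, against 24.7%. In inhibitory neurons 16 of 82 were lower, against 21.4%, and 2 were higher, against 19.2%. The median log2 difference was -0.20 and -0.19 for members and -0.01 and -0.05 for all genes tested. The share of members lower in a neuron gate was thus near the background, and the share higher was under it.

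Atp5if1, the inhibitor that stops ATP synthase from running backwards, was higher in both neuron gates in each of the 4 libraries. In radial glia it was at 434, 311, 336 and 314 CPM, in projection neurons at 787, 599, 563 and 640, and in inhibitory neurons at 651, 526, 683 and 647. The radial glia values lay below all neuron values. In projection neurons it was 1.96-fold higher (log2 0.97 ± 0.11 SE, edgeR adjusted p = 0.000463, with 2.99e-09 to 0.00387 over the alternatives). In inhibitory neurons it was 1.83-fold higher (log2 0.87 ± 0.13 SE, edgeR adjusted p = 0.00116, with 1.86e-06 to 0.00914 over the alternatives). Summed over barcodes of all kinds it was at -0.42 at E14.5 and -0.06 at P0 between genotype labels.

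The other rises were 1 per gate. Ndufaf5, an assembly factor that modifies a complex I subunit, was higher in projection neurons than in radial glia (log2 1.05 ± 0.20 SE, edgeR adjusted p = 0.00383, higher in 4 of 4 libraries, 0.000108 to 0.0176 over the alternatives). It was at 15.8, 22.7, 20.9 and 16.8 CPM in radial glia and at 40.8, 34.4, 38.4 and 37.6 in projection neurons. Cox5a, a matrix-side subunit of complex IV, was higher in inhibitory neurons (log2 0.51 ± 0.12 SE, edgeR adjusted p = 0.0108, higher in 4 of 4 libraries, 0.00993 to 0.0811 over the alternatives).

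Genes that fell in projection neurons came from all complexes, and 27.2% of all genes fell by the same test. The shares of single complexes were not tested against that share. Complex I gave 12 of its 37 tested genes, complex III 4 of 8 and complex IV 3 of 13. ATP synthase gave 4 of 17, and the assembly factors 1 of 8. Cox8a, a small complex IV subunit, was at 344, 283, 343 and 303 CPM in radial glia and at 155, 161, 175 and 163 in projection neurons, without overlap. Its log2 difference was -0.88 ± 0.11 SE (edgeR adjusted p = 0.000696, lower in 4 of 4 libraries, 7.17e-07 to 0.0102 over the alternatives). Ndufc2 was at 298, 404, 435 and 434 CPM in radial glia and at 175, 265, 178 and 171 in projection neurons. Its log2 difference was -0.93 ± 0.17 SE (edgeR adjusted p = 0.00373, lower in 4 of 4 libraries, 5.86e-06 to 0.0212 over the alternatives). Ndufa12 (-0.82), Uqcr10 (-0.77) and Ndufb11 (-0.65) were also lower in 4 of 4 libraries, at edgeR adjusted p of 0.00114, 0.00148 and 0.00217. The largest difference was that of Cox6b2, at 25, 18, 8 and 21 counts in radial glia and 1, 12, 2 and 0 in projection neurons (log2 -3.17 ± 0.70 SE, edgeR adjusted p = 0.00793, 3.12e-06 to 0.0323 over the alternatives). Only 1 library, the one labelled E14.5 knockout, had 30 counts of it over both gates, and it was lower there.

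**Figure D4:**
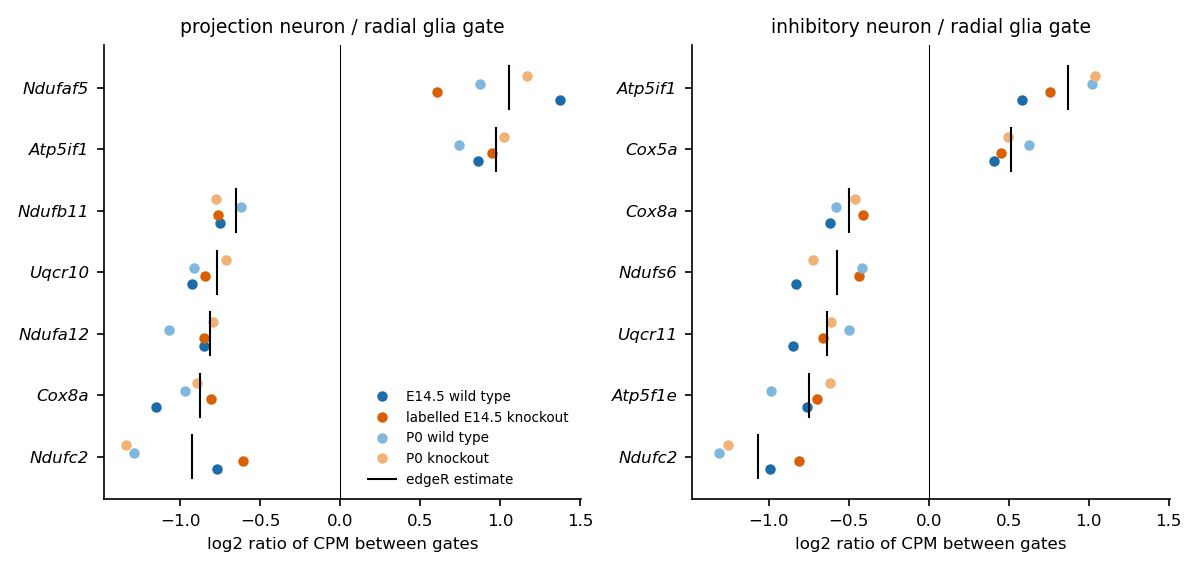
Log2 ratio of CPM between a neuron gate and the radial glia gate (x axis) in each of the 4 libraries (coloured points), with the edgeR estimate as a black bar, for the members with the lowest adjusted p in each direction. Left, projection neurons; right, inhibitory neurons; all 4 libraries lie on the same side of 0 for each gene.

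In inhibitory neurons 21.4% of all genes fell. There complex I gave 9 of 37 genes that fell, complex III 3 of 8, ATP synthase 2 of 17, complex IV 1 of 12 and the assembly factors 1 of 8. Ndufc2 was at 150, 230, 175 and 182 CPM there, with a log2 difference of -1.07 ± 0.15 SE (edgeR adjusted p = 0.000687, lower in 4 of 4 libraries, 1.69e-09 to 0.00704 over the alternatives). Atp5f1e (-0.75), Uqcr11 (-0.63), Ndufs6 (-0.57) and Cox8a (-0.50) were lower in 4 of 4 libraries, at edgeR adjusted p of 0.00305, 0.00509, 0.0136 and 0.0139. The last 3 of these, and Cox5a, missed the threshold under at least 1 alternative. Without E14.5 wild type, 2 members were lower in inhibitory neurons in place of 16, and 10, 7 and 7 without the library labelled E14.5 knockout, P0 wild type and P0 knockout. In projection neurons 13 were lower in place of 24 without E14.5 wild type, P0 wild type or P0 knockout, each left out alone. The shares of all genes called in these refits are not given here, so the falls cannot be set against the background.

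Other energy pathways and ribosomal protein genes were tested in the same fit. Of all genes, 27.2% fell and 24.7% rose in projection neurons, and 21.4% fell and 19.2% rose in inhibitory neurons. In glycolysis, 12 of 19 tested genes fell in projection neurons and 12 of 19 in inhibitory neurons by the same edgeR test, and 4 and 0 rose. Examples of the falls were Aldoc (-6.87 and -6.53), Ldha (-1.33 and -2.64) and Eno1 (-1.65 and -1.82). The 4 that rose in projection neurons were Eno2 (2.22), Hk1 (1.55), Pfkp (1.47) and Slc2a3 (1.18). Of the 4 complex II genes 3 fell in each: Sdha (-0.64 and -0.74), Sdhc (-0.59 and -0.57) and Sdhd (-0.63 and -0.74). Of the mitochondrially encoded genes, 3 of 12 rose in projection neurons (mt-Atp6 at 0.33, mt-Atp8 at 0.39 and mt-Co3 at 0.57) and 0 of 11 changed in inhibitory neurons. Citric acid cycle genes fell in 5 of 14 cases in each gate. Ribosomal protein genes fell in 27 of 82 cases in projection neurons and 21 of 82 in inhibitory neurons, and 0 rose. Their median log2 differences were -0.28 and -0.26. Of 10 tested regulators of mitochondrial biogenesis, 4 fell and 1 rose in projection neurons, and 1 fell and 2 rose in inhibitory neurons. Ppargc1a fell (-2.43 and -2.22) and Esrra rose (1.15 and 1.13) in projection and inhibitory neurons. Gabpa (-0.76), Tfam (-0.67) and Nrf1 (-0.56) also fell in projection neurons, and Gabpb1 (0.66) also rose in inhibitory neurons.

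Per barcode, oxidative phosphorylation genes took a median 1.70%, 1.38%, 1.59% and 1.39% of counts in the radial glia gates of E14.5 wild type, the library labelled E14.5 knockout, P0 wild type and P0 knockout. In projection neurons the medians were 1.39%, 1.26%, 1.30% and 1.27%, and in inhibitory neurons 1.44%, 1.26%, 1.48% and 1.34%. Radial glia had the highest median in each library. Ribosomal protein genes also had median differences below 0 in both neuron gates, as given above. With barcodes thinned to 1500 counts, the radial glia and inhibitory neuron medians of P0 wild type were equal, at 1.6% over 201 and 106 barcodes. The projection neuron median was 0.865 ± 0.054 (SD, n = 4) times that of radial glia and the inhibitory neuron median 0.913 ± 0.050 (SD, n = 4) times. In P0 wild type the quartiles were 1.37% and 1.91% in radial glia and 1.14% and 1.48% in projection neurons.

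**Figure D5:**
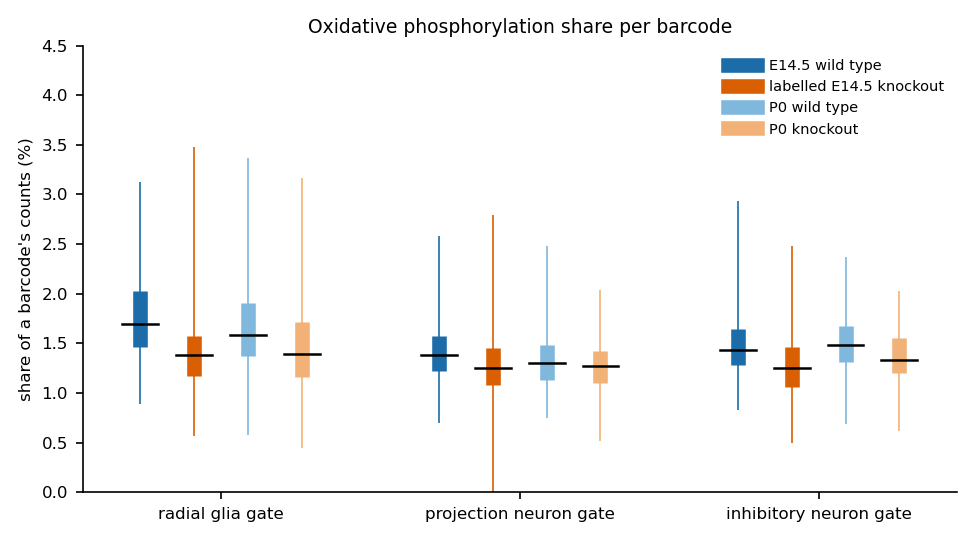
Share of a barcode's counts taken by nuclear oxidative phosphorylation genes (y axis, percent) by gate and library; boxes span the quartiles, thin lines the whole range and black bars mark medians. The radial glia medians of 1.70%, 1.38%, 1.59% and 1.39% lie above those of the neuron gates of the same library.

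Age was compared first between single animals of 1 label and then over 2 animals each. In wild type 4 of 87 members were lower and 1 higher by 0.5 or more at P0 than at E14.5, against 11.8% and 17.5% of all genes. From the library labelled E14.5 knockout to P0 knockout 4 were lower and 6 higher, against 17.0% and 26.5%. By edgeR 0 of 83 members in radial glia, 0 of 82 in projection neurons, 0 of 81 in inhibitory neurons and 0 of 87 over all barcodes were called in either direction. That fit had no genotype term, so differences of label, and of sex at E14.5, stay in its spread. The 0 calls therefore do not show that members kept their level. Markers of the radial glia gate also differed between the ages, as given above. At an unadjusted p under 0.05, 1 was higher and 3 lower at P0 in radial glia, against 13.3% and 10.8% of all genes. The counts were 0 and 6 in projection neurons, against 12.1% and 12.9%, and 0 and 0 in inhibitory neurons, against 7.61% and 7.47%. Over all barcodes they were 1 and 5, against 25.1% of all genes in either direction. DESeq2 called 0 members in each. At the adjusted threshold edgeR called, of all genes, 4.93% higher and 2.20% lower at P0 in radial glia, 4.19% and 4.89% in projection neurons, 1.17% and 1.48% in inhibitory neurons and 4.60% and 3.37% over all barcodes. Over all barcodes, Cox6b2 was at 6.42 and 8.05 CPM at E14.5 and at 1.99 and 3.37 at P0 (2.82-fold lower, SE 0.40 on the log2 scale, edgeR adjusted p = 0.0643, lower in 2 of 2 animals, 0.00574 to 0.234 over the alternatives). The assembly factor Ndufaf2, chosen after its values were seen, was at 88.1 and 75.4 CPM at E14.5 and at 60.4 and 47.7 at P0 (log2 -0.68 ± 0.20 SE, edgeR adjusted p = 0.0812, lower in 2 of 2 animals, 0.0183 to 0.453 over the alternatives). In projection neurons 16 of 82 members were lower at P0 without the library labelled E14.5 knockout, against 6.18% of all genes. Without E14.5 wild type 7 were higher and 6 lower, against 11.2% and 12.7%. Each of these refits leaves 1 library at E14.5, which is assumed to vary like the P0 pair, the only source of the spread.

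Promoters of the set share sequences that the choice by symbol did not use. RefSeq promoters (GRCm38.p6, 250 bases before to 50 after the start) were matched for 74 genes, some with more than 1 start, giving 79 promoters. The binding sequence of Nrf1 was searched on either strand, with any base allowed at 1 position beside its centre. It was found in 22.8% of these 79 promoters and in 4.60% of all 32851 promoters of that length. The sequence CCGGAAG, bound by ETS factors such as Gabpa, was in 20.3% and 8.86%, and AAGATGGCG, bound by Yy1, in 10.1% and 1.40%. At least 1 of the 3 was in 45.6% of member promoters and 13.6% of all, and each was counted without regard to overlap with another. The 17 measured genes with the Nrf1 sequence had a median log2 ratio of 0.02 at E14.5 and the other 54 one of -0.22. For the ETS sequence the medians were -0.17 with and -0.16 without it.

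The promoters of the 3 lowest members are shown to compare their sequences, with matches in capitals (CTTCCGG is the ETS sequence on the other strand). The positions are those of GRCm38.p6, not of the build of the counts. Atp5me is at chr5:108434350-108434649 on the minus strand and holds the Nrf1 sequence from 50 bases before the start and an ETS sequence 12 bases after it. Atp5mg, at chr9:44920693-44920992 on the minus strand, holds the ETS sequence at 212 bases before and 24 after. Ndufb1, at chr12:101975689-101975988 on the minus strand, holds none of the 3 in this window.
Atp5me: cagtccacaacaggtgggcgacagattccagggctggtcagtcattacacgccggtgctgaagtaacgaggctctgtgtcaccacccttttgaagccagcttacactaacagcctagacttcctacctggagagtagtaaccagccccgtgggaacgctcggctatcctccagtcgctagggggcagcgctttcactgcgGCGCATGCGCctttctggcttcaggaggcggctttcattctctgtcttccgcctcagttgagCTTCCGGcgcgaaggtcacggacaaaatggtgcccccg
Atp5mg: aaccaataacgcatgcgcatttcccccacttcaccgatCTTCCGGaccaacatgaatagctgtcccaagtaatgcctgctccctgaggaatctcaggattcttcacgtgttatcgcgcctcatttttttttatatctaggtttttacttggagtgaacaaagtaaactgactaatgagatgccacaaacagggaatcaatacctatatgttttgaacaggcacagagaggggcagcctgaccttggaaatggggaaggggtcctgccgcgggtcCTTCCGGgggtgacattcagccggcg
Ndufb1: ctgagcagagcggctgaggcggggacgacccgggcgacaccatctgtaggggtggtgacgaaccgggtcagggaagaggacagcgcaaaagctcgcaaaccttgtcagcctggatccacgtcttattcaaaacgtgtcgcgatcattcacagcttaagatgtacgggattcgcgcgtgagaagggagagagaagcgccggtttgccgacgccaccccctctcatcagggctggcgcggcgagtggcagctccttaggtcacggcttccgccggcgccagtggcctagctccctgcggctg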

How the data were processed

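Single-cell RNA libraries of 4 mouse cortices, 1 animal each, were analysed from the deposited counts, whole numbers per gene and barcode with no scaling by the authors. Per the submitters' processing notes the genome build was GRCm39. Those notes also list Seurat 5, FastQC 0.12.1 and R 4.3.2, with no role stated. Not given in the sources used here are the aligner, the counter, the strand setting and any collapsing of reads to molecules, so all intervals cover counting error only. About 15000 cells per sample went into capture, per the labels' protocols.

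The members and gene lists were chosen with earlier results of these data known. Barcodes with at least 500 counts, 300 genes and at most 10% mitochondrial counts were used, and no doublet caller was run. Counts were summed per library or gate and scaled to CPM. Ratios needed 30 counts over both libraries and carry 95% exact conditional binomial intervals, and levels carry 95% Poisson intervals. A count of 0 was set against a floor of 3. Gates and ages were tested with edgeR 4.0.16 (TMM, filterByExpr, quasi-likelihood, Benjamini-Hochberg, adjusted p under 0.05), with DESeq2 1.42.0 as an alternative, in R 4.3.3. Python 3.11.15, numpy 2.4.6, scipy 1.17.1 and pandas 2.3.3 were used. The scripts were tested on simulated data. Nothing in the labels says that the 4 animals come from separate litters, so p-values measure the spread between these libraries. Named genes were Atp5me, Ndufb1, members with a log2 ratio of 1 or more in size, the 2 of each role with the highest summed counts, listed paralogues and up to 5 per direction with the lowest adjusted p between gates. Other members are named as examples of their role and were chosen after their values were seen. Lengths and coding sequences are from GENCODE M21 (GRCm38). Alternatives covered barcode filters, depth, scaling, count filters, pseudogene rows, gates, tools, a genotype term and leaving out each library.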

Additional observations from a re-analysis of the deposited data

Results flagged for a closer look

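For 3 members the E14.5 and P0 ratios between genotype labels lay on opposite sides of 0, each with a 95% counting interval that left out 0. The difference between the ages was not tested. Cox7a2, a complex IV subunit, was at 0.34 at E14.5 and -0.24 at P0. Ndufa4, now counted to complex IV, was at 0.34 and -0.14, and Atp5pb, subunit b of the peripheral stalk of ATP synthase, at 0.22 and -0.089. All 3 were higher in the library labelled E14.5 knockout than in E14.5 wild type and lower in P0 knockout than in P0 wild type.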

How the results depend on the processing

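Of 1260 values recomputed under alternatives none changed sign where called. Among values of single genes 856 stayed within their limits, 91 moved and 9 missed the threshold, and among summary values 242 stayed and 62 moved. The summed log2 ratio of all members at E14.5 (-0.22) was -0.198 without the deepest barcodes, -0.203 with each barcode thinned to 1 depth, -0.186 with TMM factors and -0.197 with equal weight per barcode. Within the radial glia, projection neuron and inhibitory neuron gates it was -0.306, -0.152 and -0.202, and the radial glia median was -0.284. Members higher by 0.5 at E14.5 (3) were 8 thinned, 5 with equal weight, 1 with at least 100 counts, and 1, 5 and 7 in the gates. The P0 sum (-0.12) was -0.0948 thinned, -0.153 with TMM, -0.165 with DESeq2 size factors, -0.105 with equal weight, and -0.185, -0.0661 and -0.143 in the gates. Members lower at P0 (4) were 9 in radial glia, 12 in inhibitory neurons and 7 with no count filter. Members higher at P0 (1) were 0 without the deepest barcodes, thinned, with at least 100 counts and in both neuron gates, 2 with equal weight and 3 with no filter.

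Between gates, thinning left 1 member higher and 10 lower in projection neurons and 1 higher and 7 lower in inhibitory neurons. DESeq2 left 8 and a gate margin of 3 left 10 lower in inhibitory neurons. Leaving out 1 library gave 2 to 3 higher and 13 to 25 lower in projection neurons, with medians of -0.24 to -0.11, and 1 to 3 higher and 2 to 10 lower in inhibitory neurons, with medians of -0.20 to -0.09. Of 139 values of named genes between gates, 9 missed the threshold, all in inhibitory neurons. Between ages, members lower (0) were 1 thinned in radial glia. In projection neurons they were 3 with no filter, 3 with a genotype term and 2 with margin 3. Over all barcodes they were 2 with no filter, 1 with a genotype term and 1 thinned. Without 1 library they were 0 to 2 in radial glia, 0 to 16 in projection neurons, 0 in inhibitory neurons and 0 to 3 over all, and members higher were 0 to 1, 0 to 7, 0 to 2 and 0 to 2. Their medians ranged from -0.24 to 0.11, -0.20 to -0.03, -0.07 to 0.15 and -0.21 to -0.01. The cause of these shifts was not tested, and for most of these refits the share of all genes called is not given beside the count. No paired analysis was possible because each group holds 1 animal, so replicate numbers pair no samples. The gate fits have the library as a block, and the age fits with a genotype term, given above, compare the ages within labels. Counting error limits genes with few counts, such as Atp5mc2, and 1 animal a group limits every genotype ratio.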

Other observations

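The 15 rows with a pseudogene suffix held 22, 70, 27 and 35 counts in E14.5 wild type, the library labelled E14.5 knockout, P0 wild type and P0 knockout. Most came from Cox5b-ps, with 11, 24, 13 and 13 counts, and Atp5pb-ps, with 2, 21, 6 and 9.

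The share of nuclear oxidative phosphorylation genes was set against the share of mitochondrially encoded counts across barcodes. In radial glia barcodes the rank correlation was -0.04, 0.15, 0.36 and 0.44 in the 4 libraries in that order, over 72, 465, 214 and 373 barcodes. Barcodes of 1 library share that library and its depth, and the correlations are a description only.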
